A study of Mus musculus with 24 samples.

Results

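The genes described here are 10 transporters that move amino acids across the cells of the kidney tubule, taken from a count table of 54532 mouse genes by their symbols. 7 of them take part in the reabsorption of filtered amino acids by the proximal tubule: Slc3a1, Slc7a9, Slc7a7, Slc7a8, Slc6a19, Slc6a18 and Slc1a1. The other 3, Slc3a2, Slc7a5 and Slc1a5, are linked with growing cells and were set against them. All 10 were among the 22570 genes that passed the filter on low values. The RNA came from whole kidneys of 24 mice aged 18 days, labelled C57BL/6 and kept on a C57BL/6J background by the study's methods, with 1 sequencing library per mouse.

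All groups shared 1 altered copy of Pkd1, named RC, whose missense change lowers the amount of mature polycystin-1. RC/+ mice (3 libraries, replicates 4 to 6) were Pkd1 RC/F animals without Cre, in which the floxed allele stayed whole. RC/- mice (5 libraries, replicates 13 to 17) also carried Ksp-Cre, which is driven by the cadherin-16 promoter in tubule epithelium and removes the floxed allele, and are the cystic genotype of the study. Cre was present only in the cystic groups, so Cre and the loss of the floxed allele cannot be told apart. In D18 and D53 the RC allele had lost its binding motif for the microRNA miR-17 by CRISPR/Cas9 editing, and each line descended from 1 founder (founder 3 for D18, founder 2 for D53). These lines gave RC/+ D18 (3 libraries), RC/+ D53 (3 libraries), RC/- D18 (5 libraries) and RC/- D53 (5 libraries). The comparisons ask how the transporters differed in the cystic kidneys and whether they differed less when the motif was missing.

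The proximal tubule recovers nearly all filtered amino acids in 2 steps. Carriers in the brush border take them up from the lumen, and other carriers in the basolateral membrane pass them on toward the blood. Several of these carriers are pairs of a heavy chain, which brings the complex to the membrane, and a light chain, which forms the pore. Slc3a1 (rBAT) is the heavy chain of the brush-border cystine transporter and Slc7a9 its light chain, and loss of either causes cystinuria. Slc3a2 (CD98) is the heavy chain on the basolateral side for Slc7a7 and Slc7a8, but it is also the heavy chain of Slc7a5 (LAT1), which brings leucine and other large neutral amino acids into dividing cells.

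Promoter sequences were shown for the paired genes Slc3a1 and Slc7a9, which moved together, and for the other heavy chain, Slc3a2. Each line gives 100 bases before and 10 bases after a RefSeq transcription start on GRCm38.p6, 5′ to 3′ on the strand of the gene, and capitals mark a match to the HNF1 half-site GTTAAT on either strand. The windows are chr17:85028247-85028356 on the plus strand for Slc3a1, chr7:35448992-35449101 on the plus strand for Slc7a9 and chr19:8713888-8713997 on the minus strand for Slc3a2.
Slc3a1: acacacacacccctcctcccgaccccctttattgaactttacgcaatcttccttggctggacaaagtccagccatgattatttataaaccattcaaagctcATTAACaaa
Slc7a9: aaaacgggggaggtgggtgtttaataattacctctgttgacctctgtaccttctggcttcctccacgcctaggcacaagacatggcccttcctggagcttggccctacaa
Slc3a2: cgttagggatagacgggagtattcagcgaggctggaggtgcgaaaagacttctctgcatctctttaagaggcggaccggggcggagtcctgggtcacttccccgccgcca

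RefSeq gave 12 promoters of 300 bases for 7 of the 10 genes. Slc6a18, Slc7a5 and Slc1a5 were not examined for motifs. HNF1 is a transcription factor of the proximal tubule, and its half-site GTTAAT was found in 2 of the 12 promoters, that of Slc3a1 and 1 of 5 for Slc7a7, beside 7.1% of 32851 mouse promoters. The core of the amino acid response element, TGATGNAA, was found in 2 overlapping promoters of Slc7a7, beside 3.97% of all promoters. The E-box CACGTG was found in 0 of the 12, beside 7.15%. Both strands were searched, the motifs do not overlap one another in these promoters, and a match is a description of the letters only.

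On GRCm38, Slc6a19 (chr13:73679745-73704865, minus strand) and Slc6a18 (chr13:73661752-73678023, minus strand) lie side by side. The other genes are on chromosomes 17 (Slc3a1), 7 (Slc7a9 and Slc1a5), 14 (Slc7a7 and Slc7a8), 19 (Slc1a1 and Slc3a2) and 8 (Slc7a5). All are protein-coding. Slc3a1 shared 26.5% of its exon bases with Prepl on the opposite strand, Slc1a1 31.9% with 4430402I18Rik and Slc7a7 7% with Oxa1l. The strand setting of the counting is not given in the sources used here, so reads in those stretches cannot be assigned with certainty.

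Library totals lay between 20379982 and 30837488 counts, and each transporter had at least 146 counts in each library. Levels are given as CPM, a gene's count divided by the library total and multiplied by 1000000. Fold changes come from limma-trend on log2 CPM with a prior count of 2, fitted over all 24 libraries, and a gene was called at a Benjamini-Hochberg adjusted p below 0.05 over all tested genes. Libraries 20 to 27, which are 3 of the RC/- D18 and all 5 of the RC/- D53 libraries, stood apart by transcripts of skeletal muscle, whose 6 markers summed to 147 to 194 CPM there against 5.27 to 9.36 CPM elsewhere. Transporter results that use these libraries are therefore also given with that split as a covariate, or without the libraries, where a call changed. For the other gene lists and the markers, the RC/- D53 calls were not examined with the covariate. Of all tested genes, 30.2% were called in RC/- D53 against RC/- without the covariate and 7.96% with it.

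In the RC/- kidneys, the 7 reabsorption transporters were lower than in RC/+ and so was the heavy chain Slc3a2, while its light chain Slc7a5 and the glutamine carrier Slc1a5 were higher. All 10 were called, 8 lower and 2 higher. Of all tested genes 37.6% were called in this comparison, 12.2% lower and 25.5% higher. The CPM of the groups did not overlap for any of the 10, a property of 37.6% of all tested genes. In whole kidney, fewer cells of a type and less RNA per cell cannot be told apart.

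Slc6a19 (B0AT1), the main brush-border carrier of neutral amino acids, had the largest change of the 10. It was at 143, 139 and 121 CPM in the RC/+ libraries and at 51.0, 73.7, 42.1, 25.1 and 37.2 CPM in the RC/- libraries. Every RC/- library lay under the lowest RC/+ library, and the log2 fold change was -1.64 (SE 0.23, limma adjusted p = 4.77e-06), or 3.12-fold lower. Its neighbour Slc6a18 (B0AT3), a related brush-border carrier, was the most abundant of the 10 in CPM. It was at 591, 638 and 632 CPM in RC/+ and at 408, 498, 398, 291 and 249 CPM in RC/-. Its log2 fold change of -0.79 (SE 0.16, limma adjusted p = 0.000318) was smaller than that of Slc6a19, although both groups were again fully apart.

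The 2 subunits of the cystine transporter changed by similar amounts. The heavy chain Slc3a1 was at 390, 369 and 350 CPM in RC/+ and at 150, 201, 158, 91.1 and 136 CPM in RC/-. The light chain Slc7a9 was at 124, 118 and 97.1 CPM in RC/+ and at 52.2, 52.9, 54.7, 36.0 and 44.4 CPM in RC/-. The log2 fold changes were -1.37 (SE 0.18, limma adjusted p = 2.09e-06) for Slc3a1 and -1.24 (SE 0.12, limma adjusted p = 3e-08) for Slc7a9. In both genes replicate 16 was the lowest library of the RC/- group. Slc1a1 (EAAT3), the brush-border carrier of glutamate and aspartate, was at 113 ± 16.6 CPM (SD, n = 3) in RC/+ and 53.4 ± 18.9 CPM (SD, n = 5) in RC/-, and its log2 fold change was -1.14 (SE 0.18, limma adjusted p = 1.73e-05).

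On the basolateral side, Slc7a7 (y+LAT1), which exports dibasic amino acids and is lost in lysinuric protein intolerance, was at 142, 155 and 134 CPM in RC/+ and at 72.3, 82.1, 78.0, 46.0 and 75.5 CPM in RC/-. Slc7a8 (LAT2), an exchanger of neutral amino acids, was at 238, 243 and 168 CPM in RC/+ and at 154, 144, 140, 76.5 and 137 CPM in RC/-. The RC/- libraries other than replicate 16 lay close together in both genes. The log2 fold changes were -1.05 (SE 0.19, limma adjusted p = 0.000125) for Slc7a7 and -0.75 (SE 0.17, limma adjusted p = 0.0012) for Slc7a8. Their heavy chain Slc3a2 was at 308, 297 and 290 CPM in RC/+ and at 217, 211, 228, 182 and 200 CPM in RC/-. The change was the smallest among the 8 lower genes, a log2 fold change of -0.53 (SE 0.093, limma adjusted p = 7.55e-05), with no overlap between the groups.

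The growth-linked carriers did not share one direction. Slc7a5 was at 9.80, 8.05 and 10.1 CPM in RC/+ and at 17.5, 14.7, 17.8, 18.5 and 14.9 CPM in RC/-. Each RC/- library exceeded each RC/+ library, and the log2 fold change was 0.83 (SE 0.14, limma adjusted p = 5.42e-05), or 1.78-fold higher. Slc1a5 (ASCT2), which exchanges glutamine for other neutral amino acids, was at 82.6, 83.3 and 100 CPM in RC/+ and at 120, 104, 124, 121 and 101 CPM in RC/-. Its log2 fold change was 0.36 (SE 0.090, limma adjusted p = 0.00242), beside a median of 0.14 over all tested genes on this scale. With TMM factors, which bring that median to 0.013, the log2 fold change of Slc1a5 was 0.22 and it was not called (adjusted p = 0.069). The other 9 transporters kept their direction and their call under TMM factors.

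**Figure D1:**
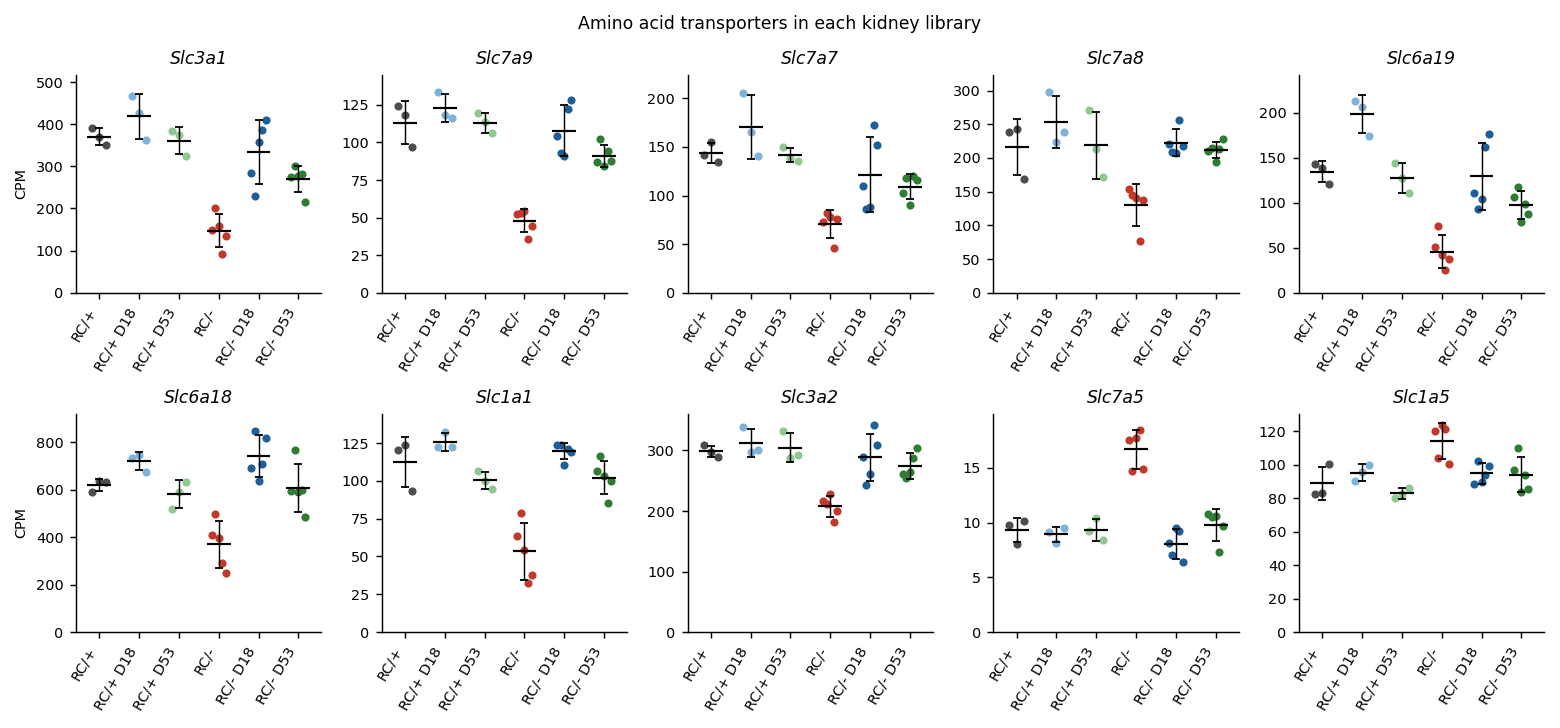
CPM (linear axis from 0) of each of the 10 transporters in each of the 24 libraries, by group. Points are libraries, bars the group mean and whiskers the SD (n = 3 for the RC/+ groups, n = 5 for the RC/- groups). RC/- is the lowest group for 8 genes and the highest for Slc7a5 and Slc1a5.

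In both lines without the miR-17 motif, the 10 transporters stood nearer to their control levels. In RC/- D18 against RC/-, the 8 genes that were lower in RC/- were higher and the other 2 lower, and all 10 were called beside 41.2% of tested genes (14.3% higher and 26.9% lower). In RC/- D53 against RC/-, the same split of 8 and 2 was called, beside 30.2% of tested genes (11.3% higher and 18.9% lower). With the split at libraries 20 to 27 as a covariate, 4 of 10 were called in D53 (3 higher and 1 lower), beside 7.96% of tested genes, and these were Slc7a9, Slc6a18, Slc1a1 and Slc7a5. All RC/- D53 libraries are on one side of that split. These comparisons and that of RC/- with RC/+ share the 5 RC/- libraries, so a low RC/- library moves all of them and they are not independent of each other.

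Slc6a19 was at 111, 93.3, 104, 162 and 176 CPM in RC/- D18 and at 107, 118, 78.4, 98.9 and 87.1 CPM in RC/- D53. No library of either group reached down to the highest RC/- library, and the log2 fold changes were 1.54 (SE 0.20, limma adjusted p = 1.34e-06) for D18 and 1.17 (SE 0.20, limma adjusted p = 9.24e-05) for D53. Slc7a9 was at 104, 93.3, 91.0, 122 and 128 CPM in RC/- D18 and at 86.8, 102, 84.4, 94.2 and 87.9 CPM in RC/- D53. It was higher by log2 fold changes of 1.17 (SE 0.11, limma adjusted p = 8.58e-09) and 0.93 (SE 0.11, limma adjusted p = 5.93e-07). For Slc3a1 the levels were 283, 229, 358, 387 and 411 CPM in RC/- D18 and 275, 301, 277, 282 and 217 CPM in RC/- D53. Its log2 fold changes were 1.19 (SE 0.16, limma adjusted p = 1.72e-06) and 0.91 (SE 0.16, limma adjusted p = 0.000102). With the covariate, Slc3a1 and Slc6a19 lost their calls in D53, at 0.32 on the log2 scale for Slc3a1 (adjusted p = 0.481) and 0.67 for Slc6a19 (adjusted p = 0.254).

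Slc1a1 was between 111 and 124 CPM in the 5 RC/- D18 libraries and between 85.6 and 116 CPM in the 5 RC/- D53 libraries. Its log2 fold changes were 1.24 (limma adjusted p = 6.96e-07) and 1.0 (limma adjusted p = 2.35e-05). Slc6a18 was at 635 to 847 CPM in RC/- D18, above each RC/- library, whereas the lowest of its RC/- D53 libraries, at 486 CPM, fell under the highest RC/- library at 498 CPM. Slc7a7 spread widely in RC/- D18, where 3 libraries were at 85.9, 88.2 and 110 CPM and the others at 152 and 172 CPM. Its log2 fold change there was 0.75 (SE 0.17, limma adjusted p = 0.00079), and 0.48 without libraries 20 to 27, where it was not called (adjusted p = 0.0557). With the covariate, Slc7a7 was not called in D18 (0.48, adjusted p = 0.0888) or in D53 (0.20, adjusted p = 0.732), and Slc7a8 was not called in D53 (0.66, adjusted p = 0.136).

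Slc3a2 was at 242 to 341 CPM in RC/- D18 and 254 to 304 CPM in RC/- D53, all above its highest RC/- library at 228 CPM. The log2 fold changes were 0.47 (limma adjusted p = 4.47e-05) and 0.40 (limma adjusted p = 0.000434), and with the covariate the D53 value was 0.21 and not called (adjusted p = 0.388). Slc7a5 was at 8.15, 7.0, 9.46, 9.26 and 6.4 CPM in RC/- D18 and at 10.8, 10.5, 10.6, 7.28 and 9.71 CPM in RC/- D53. All 10 of these libraries lay under the lowest RC/- library at 14.7 CPM, and the log2 fold changes were -1.05 (SE 0.12, limma adjusted p = 2.9e-07) and -0.77 (SE 0.12, limma adjusted p = 3.74e-05). Slc1a5 was lower by log2 fold changes of -0.26 and -0.28 (limma adjusted p = 0.00824 and 0.00737), its groups overlapped, and neither call held with TMM factors (adjusted p = 0.155 and 0.0703) or with the covariate (adjusted p = 0.0718 and 0.263). The RC/- D18 libraries did not overlap RC/- for 9 of the 10 genes, beside 27.8% of all tested genes, and the RC/- D53 libraries for 8, beside 18.8%. The exceptions were Slc1a5 in both and Slc6a18 in D53.

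**Figure D2:**
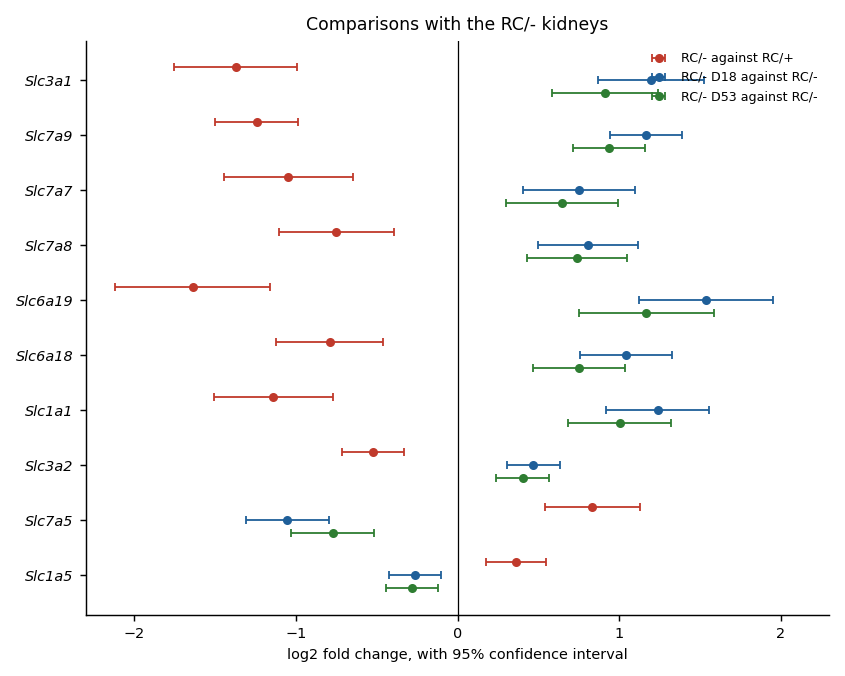
Log2 fold changes (x axis) of the 10 transporters in the 3 comparisons that share the RC/- libraries, with 95% confidence intervals from limma. The 8 genes with negative values in RC/- against RC/+ have positive values in both motif-deleted lines against RC/-, and Slc7a5 and Slc1a5 the reverse.

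Within each motif-deleted line, no transporter was called between the cystic and the control genotype. In RC/- D18 against RC/+ D18, limma called 0 of 10 beside 0.266% of tested genes, and edgeR and DESeq2 also called 0. An unadjusted limma p below 0.05 was found for 2 of 10, beside 2011 of 22570 tested genes. One was Slc6a19, with a log2 fold change of -0.66 (95% confidence interval -1.14 to -0.18, limma adjusted p = 0.324). The other was Slc7a7, with -0.53 (95% confidence interval -0.93 to -0.13, limma adjusted p = 0.357). At the other end, Slc6a18 differed by 0.035 (95% confidence interval -0.29 to 0.36) and Slc1a5 by -0.0080 (95% confidence interval -0.19 to 0.18). The groups overlapped for all 10 genes, beside 5.76% of tested genes without overlap.

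In RC/- D53 against RC/+ D53, limma called 0 of 10 beside 2.6% of tested genes, and edgeR and DESeq2 called 0. An unadjusted limma p below 0.05 was found for 2 of 10, Slc3a1 and Slc7a9, beside 3013 of 22570 tested genes. Slc3a1 differed by a log2 fold change of -0.42 (95% confidence interval -0.80 to -0.043, limma adjusted p = 0.302) and Slc7a9 by -0.31 (95% confidence interval -0.57 to -0.056, limma adjusted p = 0.238). The libraries of the groups did not overlap for these genes and for Slc7a7, 3 of 10 beside 11.6% of tested genes. When the spread was taken from these 8 libraries alone, the same 3 genes were called, beside 3.48% of tested genes. Their limma adjusted p values were 0.031 for Slc3a1, 0.0448 for Slc7a9 and 0.0414 for Slc7a7. With the split at libraries 20 to 27 as a covariate, 1 was called, Slc3a1 at -1.02 (adjusted p = 0.0476), beside 1.27% of tested genes.

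**Figure D3:**
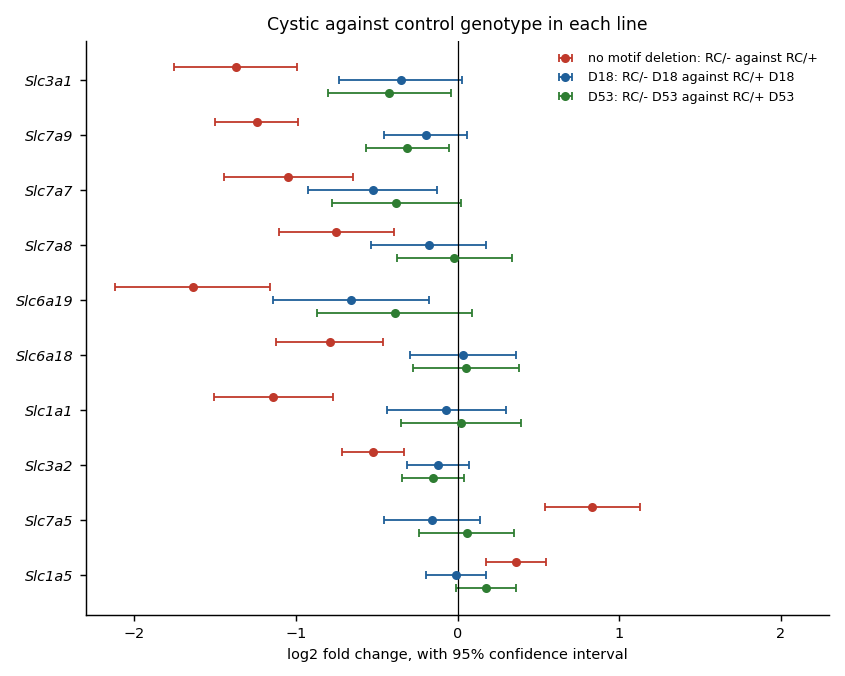
Log2 fold changes (x axis) between cystic and control genotype within the unedited animals and within each motif-deleted line, with 95% confidence intervals from limma. The intervals exclude 0 for all 10 genes without the deletion, for Slc7a7 and Slc6a19 in D18, and for Slc3a1 and Slc7a9 in D53.

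The difference between lines was also tested as an interaction, the cystic difference within a motif-deleted line minus that in unedited animals. In D18, 8 of 10 transporters were called, 6 with a positive and 2 with a negative value, beside 17.1% of tested genes (6.31% positive and 10.8% negative). In D53, 6 of 10 were called, 5 positive and 1 negative, beside 11.3% of tested genes (4.73% positive and 6.55% negative). Slc7a9, Slc1a1, Slc6a18, Slc6a19, Slc3a1 and Slc7a5 were called in both. The interaction for Slc7a9 was 1.05 in D18 (SE 0.18, limma adjusted p = 0.000217) and 0.93 in D53 (SE 0.18, limma adjusted p = 0.00144), on the log2 scale. That for Slc7a5 was -0.99 (SE 0.20, limma adjusted p = 0.00133) and -0.78 (SE 0.20, limma adjusted p = 0.0137). Without libraries 20 to 27 the D18 count was 4, beside 9.1% of tested genes. With the split as a covariate it was 4 in D18, beside 10.4% of tested genes, and 0 in D53, beside 1.79%.

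The motif deletion by itself made no called difference among control mice. In RC/+ D18 against RC/+, limma, edgeR and DESeq2 each called 0 of 10, beside 0.00443% of tested genes by limma. An unadjusted limma p below 0.05 was found for 1 of 10, beside 1013 of 22570 tested genes. That transporter was Slc6a19, at 214, 207 and 175 CPM in RC/+ D18. Its log2 fold change was 0.56 (95% confidence interval 0.021 to 1.09, limma adjusted p = 0.983). Slc6a19 and Slc6a18 did not overlap between these groups, 2 of 10 beside 9.95% of tested genes. In RC/+ D53 against RC/+, 0 of 10 were called by each tool, beside 0% of tested genes. An unadjusted limma p below 0.05 was found for 0 of 10, beside 525 of 22570 tested genes. Between RC/- D53 and RC/- D18, 0 of 10 were called by each tool, beside 0.266% by limma. An unadjusted limma p below 0.05 was found for 3 of 10, beside 2993 of 22570 tested genes. The 3 transporters were Slc7a9 (log2 fold change -0.23), Slc6a18 (-0.29) and Slc7a5 (0.28), each nearer to its RC/- level in D53.

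Levels of different genes were compared per kilobase of exon, counting every base that lies in any annotated exon of the gene. That length was 8257 bases for Slc1a1, whose longest transcript has 3800, and 4173 for Slc1a5, whose longest has 2807. Levels per kb therefore depend on this choice, and an order by transcript length was not examined. In RC/+, Slc3a1 was the highest at 163 ± 8.86 CPM per kb (SD, n = 3), followed by Slc6a18 at 140 ± 5.72 and Slc3a2 at 84.6 ± 2.63. Slc7a7, Slc7a8 and Slc7a9 came next at 43.4 ± 3.20, 43.3 ± 8.35 and 42.3 ± 5.31 CPM per kb. Their order differed from library to library. Slc6a19 was at 26.9 ± 2.34, Slc1a5 at 21.3 ± 2.41, Slc1a1 at 13.6 ± 2.01 and Slc7a5 at 2.51 ± 0.30 CPM per kb. In RC/-, Slc6a18 led at 83.5 ± 22.5 CPM per kb (SD, n = 5). The heavy chains followed, Slc3a1 at 64.8 ± 17.5 and Slc3a2 at 58.9 ± 4.94. Within libraries, Slc3a2 was above Slc3a1 in replicate 16 and below it in the other RC/- libraries. Slc1a5, at 27.3 ± 2.60 CPM per kb, stood above Slc7a9 at 17.9 ± 2.91 and Slc6a19 at 9.15 ± 3.63.

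The balance between the heavy chains shifted with these levels. The ratio of Slc3a2 to Slc3a1 per kb was 0.508, 0.517 and 0.533 in RC/+ and 0.933, 0.676, 0.928, 1.29 and 0.950 in RC/-. The ratio was 0.572 ± 0.096 (SD, n = 5) in RC/- D18 and 0.666 ± 0.138 (SD, n = 5) in RC/- D53, and replicate 19 of the former, at 0.680, and replicate 27 of the latter, at 0.903, lay above the lowest RC/- library. Slc3a1 and its own light chain kept their proportion more closely, with a ratio of Slc3a1 to Slc7a9 of 3.88 ± 0.32 in RC/+ and 3.57 ± 0.55 in RC/-. Among the 3 light chains of Slc3a2 in the set, Slc7a5 made up 2.87 ± 0.66% of their summed CPM per kb in RC/+ and 9.13 ± 3.12% in RC/-, where the libraries ran from 6.90% to 14.6%. It made up 2.67 ± 0.63% in RC/- D18 and 3.41 ± 0.66% in RC/- D53, and none of those libraries reached 6.90%. The ratio of Slc6a18 to Slc6a19 was 5.25 ± 0.62 in RC/+ and 9.63 ± 2.33 in RC/-. It was 6.90 ± 2.12 in RC/- D18 and 7.09 ± 0.92 in RC/- D53, whose highest libraries, at 10.3 and 8.52, lay above the lowest RC/- library at 7.60. These ratios were not tested, and those with Slc3a1 carry the stretch it shares with Prepl.

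**Figure D4:**
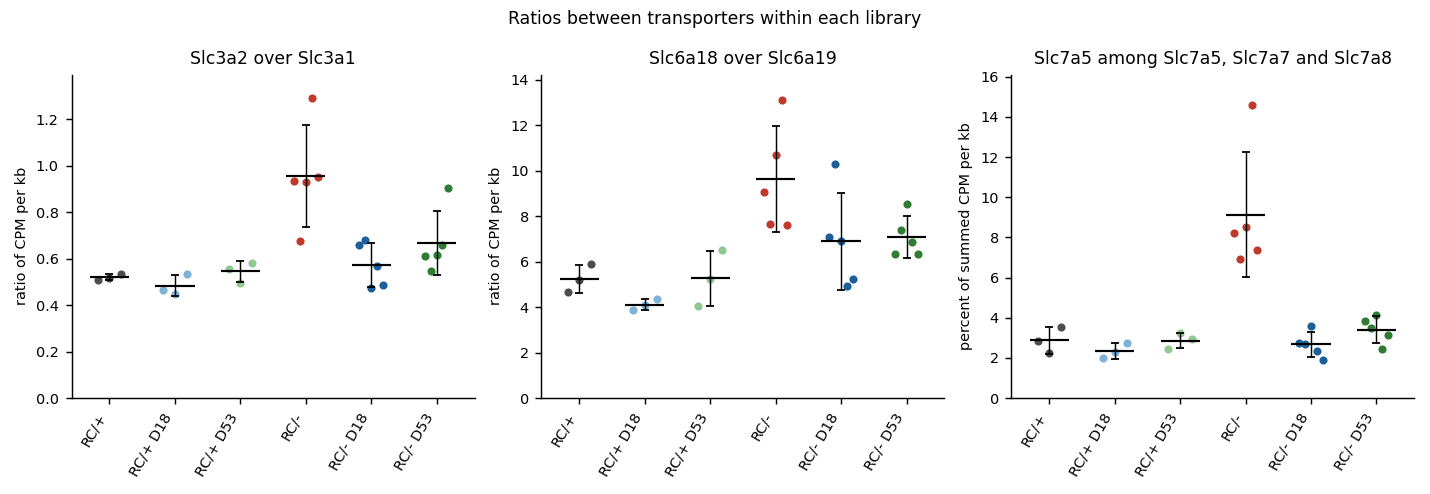
Ratios within each library, from CPM per kb of exon (linear axes from 0): Slc3a2 over Slc3a1, Slc6a18 over Slc6a19, and the percent that Slc7a5 makes of Slc7a5, Slc7a7 and Slc7a8. Points are libraries, bars means and whiskers SDs (n = 3 or 5), and the RC/- libraries hold the highest value in each panel.

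Markers of several cell types were read from the same fit. In RC/- against RC/+, 12.2% of all tested genes were called lower and 25.5% higher. Of 20 proximal tubule markers, which include Lrp2 and Slc34a1, 18 were lower in RC/- than in RC/+ and 0 higher, and their summed level ran from 6842 to 12493 CPM in RC/- against 24838 to 25957 CPM in RC/+. The sum was 22544 to 30282 CPM in RC/- D18 and 18638 to 21944 CPM in RC/- D53. Of 15 macrophage markers all 15 were higher in RC/- (780 to 1518 CPM against 385 to 416 CPM), as were 7 of 9 collecting duct markers (2657 to 5044 CPM against 1194 to 1487 CPM). Of 20 cell cycle markers 2 were called higher, beside the 25.5% of tested genes (summed levels 627 to 1089 CPM against 441 to 744 CPM). Their median log2 fold change was 0.61, and 7 had an unadjusted limma p below 0.05, beside 10274 of 22570 tested genes. Without libraries 20 to 27, which add to the shared estimate of spread, 9 of the 20 were called, beside 37.4% of tested genes. Against RC/-, 26.9% of all tested genes were lower in RC/- D18 and 18.9% in RC/- D53. All 15 macrophage markers were lower in RC/- D18 (474 to 523 CPM) and in RC/- D53 (502 to 802 CPM). Of the 9 collecting duct markers, 8 were lower in RC/- D18 (1419 to 1830 CPM) and 5 in RC/- D53 (1858 to 3103 CPM). Of the 20 cell cycle markers, 16 were lower in RC/- D18 (243 to 730 CPM). In RC/- D53 (549 to 925 CPM) limma, edgeR and DESeq2 called 0 of them. There 1 had an unadjusted limma p below 0.05, beside 8842 of 22570 tested genes. Without libraries 20 to 27, RC/- D18 had 14 macrophage, 7 collecting duct and 1 cell cycle marker called, beside 26.4% of tested genes. Replicates 18 and 19 of RC/- D18, outside that split, were at 730 and 714 CPM for the cell cycle markers, within the RC/- range. The sum of these markers was 339 to 687 CPM in RC/+ D18. In RC/+ D53 it was 821 to 874 CPM, also within the RC/- range. Between RC/- D53 and RC/+ D53, 8 macrophage and 5 collecting duct markers were higher, beside 2.6% of tested genes called in either direction. All RC/- D53 libraries are on one side of that split. Between RC/- D18 and RC/+ D18, 2 collecting duct markers were called, both higher, beside 0.266% of tested genes, and 0 without libraries 20 to 27. Of the macrophage markers limma, edgeR and DESeq2 called 0 there, and 3 had an unadjusted limma p below 0.05, beside 2011 of 22570 tested genes. The 6 skeletal muscle markers had a median log2 fold change of 0.047 in RC/- against RC/+, and 0 were called by limma, edgeR and DESeq2, with 0 at an unadjusted p below 0.05. The RC/- D53 marker calls were not examined with the split at libraries 20 to 27 as a covariate. The part of these cell types in the transporter results was not tested.

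Set against the summed proximal tubule markers of the same library, the transporters fell into a range. From RC/+ to RC/-, the mean log2 ratio to that sum moved by 0.049 for Slc3a1, 0.18 for Slc7a9 and -0.22 for Slc6a19. It moved by 0.28 for Slc1a1, 0.37 for Slc7a7, 0.63 for Slc6a18 and 0.67 for Slc7a8. For Slc3a2 it moved by 0.90, for Slc1a5 by 1.79 and for Slc7a5 by 2.26. The shift was smaller than the SD of the RC/- libraries for Slc3a1 (SD 0.22), Slc7a9 (SD 0.21) and Slc6a19 (SD 0.28). On average Slc1a1, Slc7a7, Slc6a18 and Slc7a8 fell by less than the marker sum. These are descriptions of ratios, with no test.

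Among the 5 genes whose pattern over the 24 libraries was nearest to that of Slc7a9 were Tcn2 (a carrier protein of vitamin B12), Pipox, Cryl1 and Clrn3, ranked 2 to 5. Their root mean square differences in centred log2 CPM were 0.101 to 0.107, among 11176 genes ranked. Its partner Slc3a1 ranked 104 at a difference of 0.17. The genes nearest to Slc7a5 were Rab3d, Pygb, Cyb5r3, Tagln2 and Bak1, at 0.18 to 0.19. Slc1a5 ranked 2480 and the heavy chain Slc3a2 9884 in likeness to Slc7a5, while Slc3a2 ranked 637 in likeness to Slc7a9.

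Of 12 other genes of proximal tubule amino acid transport, 10 were lower in RC/- than in RC/+ and 0 higher, beside 12.2% of tested genes lower and 25.5% higher, with a median log2 fold change of -0.91 beside 0.14 over all tested genes. Slc7a13, another light chain that pairs with Slc3a1, was at 139 ± 10.9 CPM (SD, n = 3) in RC/+ and 41.4 ± 21.5 CPM (SD, n = 5) in RC/-, so that its log2 fold change was -1.92 (SE 0.27, limma adjusted p = 4.88e-06). Slc6a20b had a log2 fold change of -1.45. Cltrn (collectrin), which brings Slc6a19 and Slc6a18 to the brush border, had -1.27. The genes not called were Slc36a1 (-0.30, limma adjusted p = 0.0504) and Slc36a2 (-1.34, SE 1.16). Against RC/-, 11 of the 12 were higher in RC/- D18 (beside 14.3% of tested genes) and 8 in RC/- D53 (beside 11.3%), and 0 were lower. Without libraries 20 to 27, 9 of the 12 were called in RC/- D18, beside 26.4% of tested genes in either direction. The RC/- D53 calls of this list were not examined with that split as a covariate.

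Of 10 other light chains and growth- or stress-linked carriers, 5 were higher in RC/- than in RC/+ and 0 lower, beside 25.5% of tested genes higher and 12.2% lower, with a median of 0.61. Slc7a1 (CAT1), a carrier of arginine and lysine found in most cells, was at 25.8 ± 2.75 CPM (SD, n = 3) in RC/+ and 72.8 ± 3.62 CPM (SD, n = 5) in RC/-. Its log2 fold change of 1.5 (SE 0.11, limma adjusted p = 1.77e-10) was larger than that of Slc7a5. Slc38a1, a glutamine carrier, had 0.77, Slc7a6, a light chain of Slc3a2, 0.74, and Slc7a2 0.74. Slc7a11, the cystine carrier of stressed cells and a further light chain of Slc3a2, had -0.15 and was not called (limma adjusted p = 0.765). In the D53 line, 2 of the 10 were called between cystic and control genotype, beside 2.6% of tested genes, both higher: Slc7a1 (0.61, limma adjusted p = 0.00127) and Slc7a6 (0.45, limma adjusted p = 0.0429). Whether these calls hold with the muscle transcript split as a covariate was not examined. In the D18 line limma called 0 of 10 and edgeR and DESeq2 also 0. There 1 had an unadjusted limma p below 0.05, beside 2011 of 22570 tested genes.

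Of 12 genes that cells raise when amino acids run short, 5 were higher in RC/- than in RC/+ and 1 lower, beside 25.5% and 12.2% of tested genes, with a median of 0.43. The higher genes included Mthfd2 (1.14), a mitochondrial folate enzyme, Asns (1.0), which makes asparagine, Trib3 (0.88) and Ddit4 (0.63). The lower one was Shmt2 (-0.53), which makes glycine in mitochondria. Atf4, which encodes the transcription factor of this response, had 0.16 and was not called (limma adjusted p = 0.17), and neither was Sesn2 (0.016). Against RC/-, 7 of the 12 were lower and 1 higher in RC/- D18 (beside 26.9% and 14.3% of tested genes), and 6 lower and 1 higher in RC/- D53 (beside 18.9% and 11.3%). Without libraries 20 to 27, 7 of the 12 were called in RC/- D18 in either direction, beside 26.4% of tested genes. The RC/- D53 calls of these genes were not examined with that split as a covariate.

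**Figure D5:**
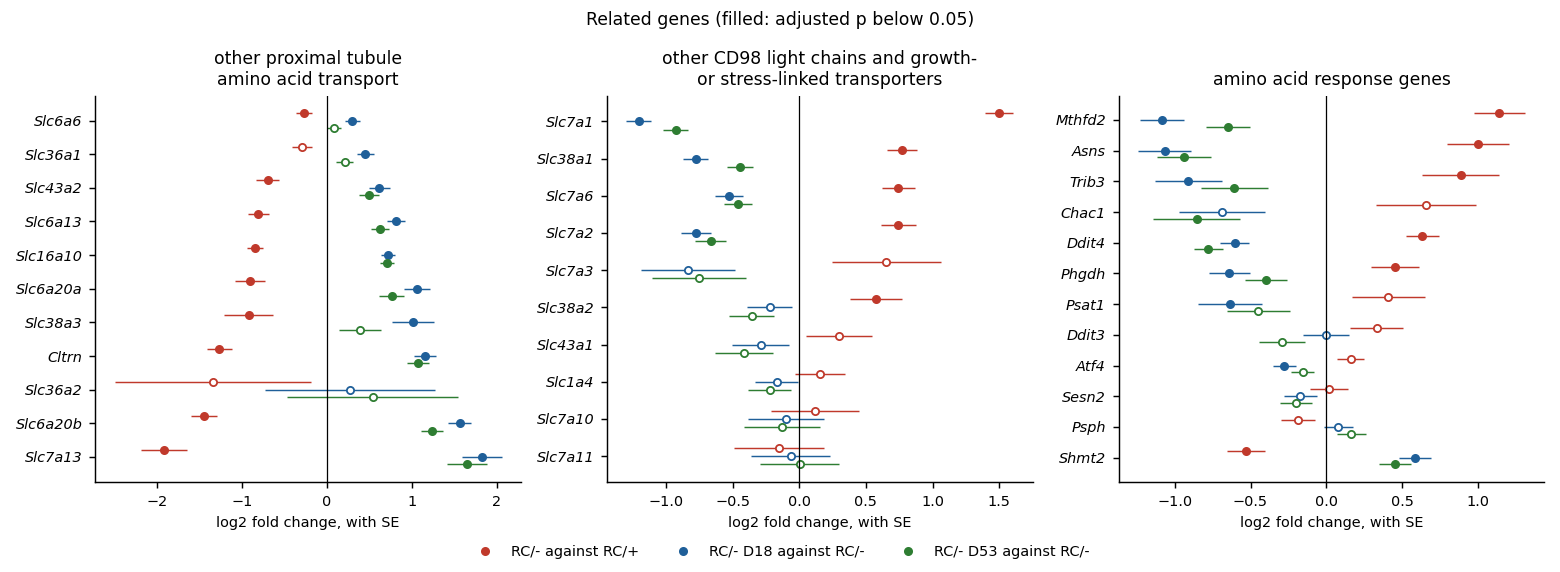
Log2 fold changes (x axis, with SE) of genes from 3 related lists, in RC/- against RC/+ and in both motif-deleted lines against RC/-, which share the RC/- libraries. Filled points are called by limma. In RC/- against RC/+ the tubular genes drawn are called on the negative side, except Slc36a1 and Slc36a2, and 5 of 10 growth-linked carriers are called on the positive side.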

How the data were processed

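RNA sequencing measured 24 whole kidneys, 1 library each. The authors deposited 1 table of raw read counts per gene, made with Trim Galore 0.6.3 and STAR 2.5.3a (gene counts) on GRCm38 with Ensembl release 94, and 0 columns were left unused. Here, counts were turned into log2 CPM by library total (prior count 2), genes averaging under -3 on that scale were dropped, and limma 3.58.1 (trend) was fitted in R 4.3.3 to 6 groups, as in the study's own approach, with 8 comparisons of groups and 2 interactions, two-sided. Exon lengths and positions came from GENCODE M21 on GRCm38, which matched 54409 of the 54532 identifiers. The fit was checked on simulated data. Alternatives were edgeR 4.0.16, DESeq2 1.42.0, other scalings, filters and prior counts, sex read from the data, libraries 20 to 27 as a covariate or left out (the latter chosen after seeing the data), and leaving out each library. The members and gene lists were chosen with earlier results of these data known. Named genes were all 10 members, a few of each list by size of change, and the 5 nearest patterns to Slc7a9 and Slc7a5, of which 1 gene, and 1 gene of a list, are not reported here by name. No 2 libraries of a group were alike within sampling noise (chi-square per degree of freedom 8.45 to 48.2 over 39 pairs). Depth limits Slc7a5 most, whose lowest count was 146.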

Additional observations from a re-analysis of the deposited data

Results flagged for a closer look

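In 3 of 30 sets of 5 libraries, 1 library lay far from the other 4 by Dixon's criterion, which chance meets in about 1 set in 20. Slc7a7 in RC/- was at 46.0 CPM in replicate 16 and at 72.3 to 82.1 CPM in the others. Slc7a8 in RC/- was at 76.5 CPM in replicate 16 and at 137 to 154 CPM in the others. Slc7a8 in RC/- D18 was at 257 CPM in replicate 21 and at 208 to 221 CPM in the others. Both genes kept their calls in RC/- against RC/+ and in both lines against RC/- with any 1 library left out.

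The cystic difference within a motif-deleted line differed from that in unedited mice by the interaction test for 8 transporters in D18 and 6 in D53, beside 17.1% and 11.3% of tested genes. In D18 the log2 interaction was 1.02 for Slc3a1, 1.05 for Slc7a9, 0.98 for Slc6a19, 0.83 for Slc6a18, 1.07 for Slc1a1, 0.40 for Slc3a2, -0.99 for Slc7a5 and -0.37 for Slc1a5. In D53 it was 0.95 for Slc3a1, 0.93 for Slc7a9, 1.25 for Slc6a19, 0.85 for Slc6a18, 1.16 for Slc1a1 and -0.78 for Slc7a5. Both sets of values share the RC/+ and RC/- libraries. With TMM factors the D18 value of Slc1a5 was -0.27 and not called (limma adjusted p = 0.18). With 1 library left out, the D18 call was lost in 10 of 16 runs for Slc6a19, 10 of 16 for Slc1a5 and 9 of 16 for Slc3a2.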

How the results depend on the processing

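No paired analysis was made, since the sample labels used here name no litter and the replicate numbers of the groups, 4 to 27, are all different. The study states that its genotypes could be bred from the same pair, so some mice of different groups may be littermates. The count of transporters called was 10 in RC/- against RC/+ and in both lines against RC/- with any 1 library left out, and 9 to 10 in the first under the other settings. Slc1a5 was the gene lost there, under TMM factors, DESeq2 size factors, edgeR and DESeq2 (adjusted p = 0.067 to 0.0703). In RC/- D18 against RC/- the count was 8 to 10, with Slc1a5 lost under the same settings (adjusted p = 0.147 to 0.156) and Slc1a5 and Slc7a7 lost with libraries 20 to 27 as a covariate or left out. With libraries 20 to 27 as a covariate, 4 were called in RC/- D53 against RC/- (beside 7.96% of tested genes) and 1 in RC/- D53 against RC/+ D53 (beside 1.27%). The same setting gave 4 in the D18 interaction (beside 10.4%) and 0 in the D53 interaction (beside 1.79%). All RC/- D53 libraries are among those 8, so these D53 values rest on the split within RC/- D18. With only the groups of the comparison, 3 were called in RC/- D53 against RC/+ D53 (beside 3.48% of tested genes) and 5 in the D18 interaction (beside 14.7%). The D18 interaction gave 5 without the filter on low counts, 4 without libraries 20 to 27, and 5 to 8 with 1 library left out (5 without RC/+ replicates 4 or 5, RC/+ D18 replicates 8 or 9, RC/- replicate 16 or RC/- D18 replicate 21). The D53 interaction gave 5 to 7 with 1 library left out, and 8 with TMM factors, DESeq2 size factors, edgeR, DESeq2 or only the groups of the comparison.

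Single genes were followed through the settings in 5 comparisons of groups and both interactions. Reversals there fell in the comparisons within the motif-deleted lines, among values near 0 that were not called. In D18, Slc6a18 was at -0.0055 with TMM factors and -0.0043 with DESeq2 size factors, and at -0.016 to 0.088 with 1 library left out, and Slc1a5 at -0.048 to 0.028. In D53, Slc1a1 was at -0.020, -0.024, -0.015 and -0.019 with TMM factors, DESeq2 size factors, edgeR and DESeq2, and Slc7a5 at -0.071 with the covariate. With 1 library left out, D53 values ran from -0.18 to 0.14 for Slc7a8, -0.034 to 0.13 for Slc6a18, -0.027 to 0.083 for Slc1a1 and -0.020 to 0.16 for Slc7a5. The cause of these changes was not tested.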
